A study of Mus musculus with 6 samples.

Results

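The genes for activating long-chain fatty acids and breaking them down by beta-oxidation were followed in hearts of mouse embryos with a cardiomyocyte knockout of the RNA-binding proteins RBPMS and RBPMS2. The set was defined by gene symbol and holds 37 genes, all found once each among the 48709 rows of the table. It covers the carnitine shuttle, acyl-CoA synthetases and dehydrogenases, the later enzymes of the cycle, the electron transfer flavoprotein, thioesterases, the malonyl-CoA enzymes and a pair of uncoupling proteins.

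Polyadenylated RNA of whole hearts was sequenced in 2 genotypes with 3 libraries each. Double knockouts were RBPMS flox/flox RBPMS2 flox/flox and positive for the Cre labelled XML, described as specific for cardiomyocytes, the contractile cells of the heart. Controls were littermates with the same floxed alleles, and both genotypes were of strain C57BL6/J. No group carried Cre alone, so an effect of Cre and the loss of both genes cannot be told apart. Embryonic age and the number of animals behind a library are not stated in the labels.

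Heart muscle of the adult runs largely on fatty acids, whereas the embryonic heart is known to rely more on glucose and lactate. Acyl-CoA synthetases first couple a fatty acid to coenzyme A. Carnitine palmitoyltransferase 1 on the outer mitochondrial membrane, a carnitine carrier and carnitine palmitoyltransferase 2 then bring long chains into the matrix, where dehydrogenases, hydratases and thiolases shorten them step by step. Malonyl-CoA blocks the entry step, and nuclear receptors of the PPAR and ERR families are known to switch on many of these genes.

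The stretches upstream of 4 members are shown as examples: Acads is the member that passed the test, Acadm holds the nuclear receptor half-site, Acacb is the member with a TATA box, and Hadha and Hadhb share 1 stretch. RefSeq windows for GRCm38.p6 were matched to 31 of the 37 members by symbol, and the 250 bases before the start are printed 5′ to 3′ on the gene's own strand. Capitals mark each match, on either strand, to the nuclear receptor half-site AAGGTCA, to the box with the letters CCAAT, to the GC box, spelled GGGCGG, or to the TATA box, searched for as TATAAA. No marked matches overlap. Acadm lies at chr3:153944644-153944893 on the minus strand, Hadhb at chr5:30155003-30155252 on the plus strand, Acacb at chr5:114165268-114165517 on the plus strand and Acads at chr5:115119347-115119596 on the minus strand. In GENCODE the Acacb gene spans chr5:114146535-114250761, so its window lies inside the gene, before an internal RefSeq start. The matches marked for Acacb belong to that start.
Acadm: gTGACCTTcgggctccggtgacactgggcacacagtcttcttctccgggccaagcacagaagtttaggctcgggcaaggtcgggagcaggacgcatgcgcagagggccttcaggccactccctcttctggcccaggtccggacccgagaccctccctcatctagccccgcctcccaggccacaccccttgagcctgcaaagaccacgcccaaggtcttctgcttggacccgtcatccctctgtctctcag
Hadhb: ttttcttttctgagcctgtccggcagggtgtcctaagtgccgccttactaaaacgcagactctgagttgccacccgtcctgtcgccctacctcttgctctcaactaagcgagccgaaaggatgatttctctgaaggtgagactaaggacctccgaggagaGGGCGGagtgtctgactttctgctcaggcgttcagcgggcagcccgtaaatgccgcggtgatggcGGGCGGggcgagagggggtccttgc
Acacb: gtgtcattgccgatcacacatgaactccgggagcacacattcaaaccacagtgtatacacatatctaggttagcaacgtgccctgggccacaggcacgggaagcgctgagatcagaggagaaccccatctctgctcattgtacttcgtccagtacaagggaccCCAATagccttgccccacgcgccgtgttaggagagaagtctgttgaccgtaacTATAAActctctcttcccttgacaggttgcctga
Acads: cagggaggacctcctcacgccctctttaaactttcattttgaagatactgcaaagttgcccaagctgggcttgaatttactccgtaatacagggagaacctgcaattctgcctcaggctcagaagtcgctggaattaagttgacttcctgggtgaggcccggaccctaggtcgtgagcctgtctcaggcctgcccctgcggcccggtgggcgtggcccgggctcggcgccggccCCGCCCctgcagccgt

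In the RefSeq annotation the starts of Hadha and Hadhb lie 273 bases apart and point away from each other, so the Hadhb window is also most of the stretch upstream of Hadha. In GENCODE the Hadha gene spans chr5:30118304-30155162, so part of the Hadhb window lies inside it. The half-site was found in 1 of the 31 matched members, Acadm, 249 bases before its start, and in 4.08% of all 32851 windows of this length. GC boxes were found in 20 matched members, against 32.7% of all windows. CCAAT was found in 16, against 33.8%, and TATAAA in 1, Acacb, against 12.4%. These are matches of letters in a short window and say nothing about binding.

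The deposited values, which look like read counts scaled per library and rounded, are called normalised read counts here. They summed to between 19770390 and 20215282 per library. Rbpms was at 721, 699 and 670 in double knockout libraries and at 3551, 3853 and 3956 in control libraries, and Rbpms2 at 1676, 1257 and 1429 in double knockouts and at 2444, 2571 and 2716 in controls. Libraries numbered 3 stand apart in both genotypes: Xist was at 20 in double knockout 3 and at 6 in control 3, against 19501 to 25229 in the other 4. Eif2s3y, on the Y chromosome, was at 1569 in double knockout 3 and at 1207 in control 3, against 0 to 4 in the other 4. By these 2 genes libraries numbered 3 were male and the other 4 female. An effect of sex on the results below was not tested. The summed level of 12 cardiomyocyte markers was 757315 to 830958 in double knockouts and 900934 to 958322 in controls, with Myh6 and Actc1 as the 2 of 12 called lower. Log2 differences were below 0 for 8 of the 12 and above 0 for 4. Lower without overlap were 3 of the 12, beside 10.6% of all tested genes. Without Myh6 and Actc1, left out after their values were seen, the other 10 summed to 545880 to 616365 in double knockouts and 584645 to 615957 in controls, which overlap. Erythroid markers summed to 126316 to 173249 in double knockouts and 59281 to 164300 in controls, with 0 of 9 past the threshold. Of 7 mural markers 1 fell, Des, a gene that cardiomyocytes also express, and the other 6 summed to 7869 to 10488 in double knockouts and 8796 to 9023 in controls, which overlap. Macrophage and leukocyte markers summed to 1282 to 1489 in double knockouts and 1211 to 1249 in controls, with 2 of 8 higher (Ptprc and Cx3cr1) and the other 6 at 1173 to 1348 in double knockouts and 1147 to 1174 in controls. Endothelial and endocardial markers summed to 25501 to 30622 in double knockouts and 23650 to 28399 in controls, with 1 of 10 higher (Emcn). Those of fibroblasts and cushions summed to 67582 to 91519 in double knockouts and 72187 to 85591 in controls, with 0 of 9 called. Epicardial markers summed to 6782 to 8416 in double knockouts and 6877 to 8366 in controls. Of these 8, 1 was higher (Krt19) and 1 lower (Lrrn4). Beside these marker counts, 4.86% of all tested genes passed the threshold, and 8.08% of those with a mean of at least 100. In bulk tissue, fewer cells of a type and less RNA per cell cannot be told apart, and the part of cell composition in the results below was not tested. Markers of liver summed to 19 to 31 over 8 genes in all libraries. Those of brown fat summed to 88 to 107 in double knockouts and 84 to 108 in controls over 8 genes, of which Cidea rose, at 27, 28 and 34 in double knockouts and 10, 14 and 13 in controls (1.21, limma adjusted p = 0.015).

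Summed over the set, the genotypes did not differ beyond the spread between libraries. Values of the 37 genes summed to 59754, 58944 and 61404 in double knockouts and to 60920, 58877 and 60793 in controls. The ranges overlap, and the means of 60034 ± 1254 in double knockouts and 60197 ± 1145 in controls (SD, n = 3 each) gave p = 1.0 (exact two-sided permutation test, where 3 against 3 cannot go below 0.1). The set made up 0.298 to 0.304% of all values in double knockouts and 0.291 to 0.304% in controls. Differences are given as log2 fold changes of value + 1, with positive ones higher in double knockouts. Their median was -0.04 over the set, beside 0.02 over all 26747 genes tested. Lower members slightly outnumbered higher ones, 22 against 15.

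All 37 members entered the test, though Ucp3 has only a handful of reads. Of these, 1 member (2.70%) passed an adjusted p of 0.05 in limma, and it was lower: the short-chain dehydrogenase gene Acads. The background over all tested genes was 4.86%, with 2.55% lower and 2.31% higher. Among genes with a mean of at least 100, which 36 of the members reach, it was 8.08%. Without limma's robust option 0 members passed, beside 1.31% of all tested genes. Without both libraries numbered 3, a fit on fewer libraries, also 0 members passed, beside 0.137% of all tested genes. Unadjusted p was under 0.05 for 5 higher and 7 lower members (32.4%), against 18.7% of all tested genes and 27.3% of those with a mean of at least 100. The 3 libraries of each genotype did not overlap in 7 higher and 7 lower members (37.8%), against 21.7% of all tested genes and 31.5% of those with a mean of at least 100. Differences were small: 0 of the 37 reached 0.5 on the log2 scale in either direction. The 95% interval lay within 0.5 of 0 for 32 members and within 1 for 36, with Ucp3 outside.

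**Figure D1:**
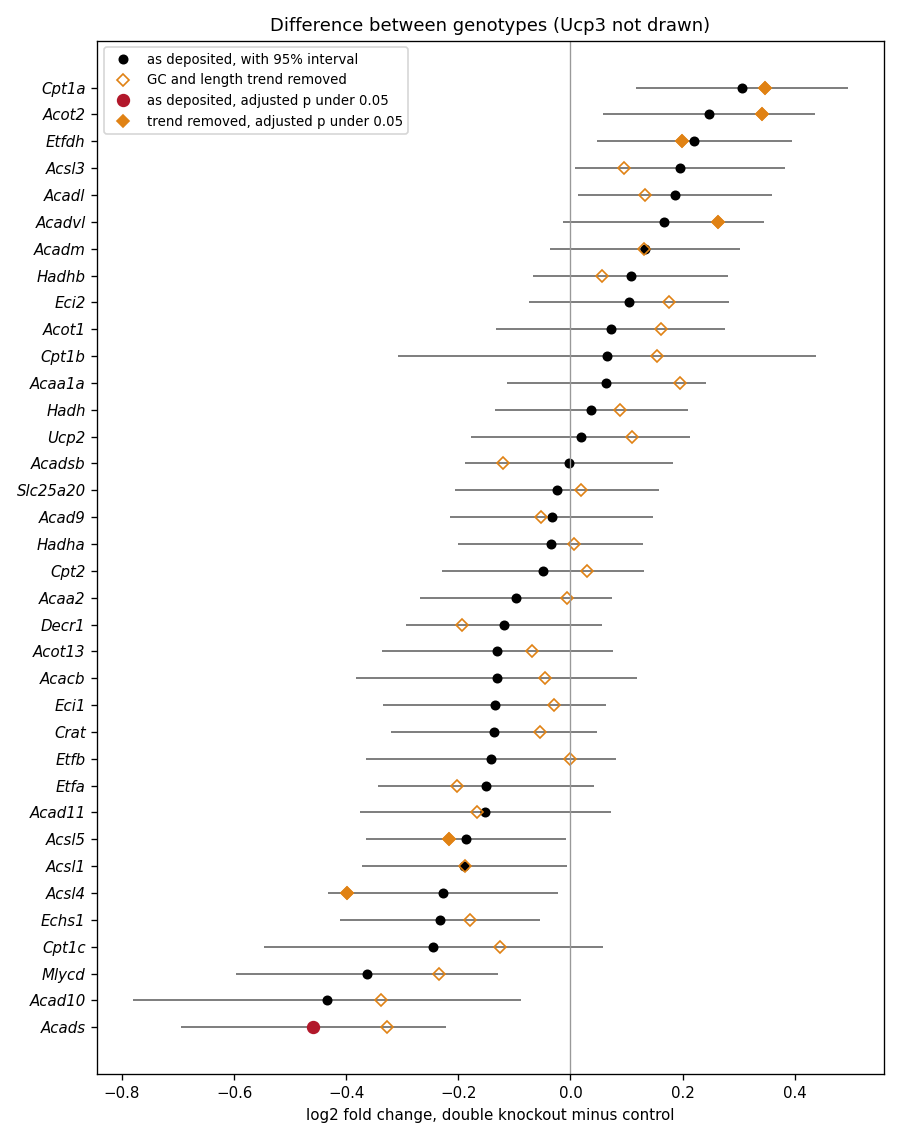
Log2 fold change of 36 members (x axis, of value + 1, double knockout minus control), 1 row a gene, n = 3 libraries each. Dots with lines are the estimate and its 95% interval, diamonds the estimate after removing each library's trend with GC content and length, and filled red dots or orange diamonds passed an adjusted p of 0.05; estimates run between -0.46 for Acads and 0.31 for Cpt1a.

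Of the 6 genes that bring long chains into mitochondria, 0 passed the test, and Cpt1a came closest. It encodes the carnitine palmitoyltransferase 1 form of liver and of the fetal heart (chr19:3322334-3385733, plus strand, mm10). It was at 1290, 1151 and 1312 in double knockouts and at 1059, 1042 and 933 in controls. Every double knockout library lay above every control library, and the log2 difference of 0.31 ± 0.09 (SE; 95% interval 0.12 to 0.50) missed the threshold at an adjusted p of 0.0567 in limma. With the GC and length trend removed it passed (0.35, limma adjusted p = 0.00627), and without both libraries numbered 3 the difference was 0.21 (limma adjusted p = 0.537). It also passed without double knockout 2 (limma adjusted p = 0.0321).

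Cpt1b, the muscle form, was at 138, 89 and 138 in double knockouts and at 113, 100 and 131 in controls. The groups overlap. Per kilobase of transcript its level was 42.0 in double knockouts and 39.6 in controls, beside 290 in double knockouts and 234 in controls for Cpt1a. The log2 ratio of Cpt1b to Cpt1a was -3.39 ± 0.26 in double knockouts and -3.15 ± 0.28 in controls (SD, n = 3 each; exact two-sided permutation test, p = 0.5), so it differed by less than the spread between libraries. The level of Cpt1b is uncertain, since 92.1% of the 75-base stretches of its transcript are also part of Gm44502, a read-through transcript that is not analysed here. How reads over both were assigned is not stated.

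Cpt1c, a brain form with little activity on its own, spanned 167 to 252 in double knockouts and 219 to 267 in controls. Cpt2, on the inner membrane, spanned 1026 to 1130 in double knockouts and 1054 to 1164 in controls, and Slc25a20, the carnitine-acylcarnitine carrier, 748 to 781 in double knockouts and 747 to 820 in controls. All 3 overlap between genotypes, with log2 fold changes of -0.24, -0.05 and -0.02. Crat, the acetyltransferase that lets short acyl groups leave as carnitine esters, was at 1791, 1529 and 1729 in double knockouts and 1795, 1939 and 1806 in controls. The double knockouts lay just below (-0.14 ± 0.09, limma adjusted p = 0.43).

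Among the acyl-CoA synthetases, 0 of 4 passed, and 3 of them lay lower and 1 higher. Acsl1, the form that feeds oxidation in the heart, was at 820, 773 and 821 in double knockouts and at 970, 874 and 910 in controls. Acsl5, found on mitochondria and the endoplasmic reticulum, was at 1221, 1212 and 1275 in double knockouts and at 1436, 1476 and 1312 in controls. The genotypes do not overlap in either gene, and both differed by -0.19 ± 0.09 on the log2 scale (limma adjusted p = 0.247 for Acsl1 and 0.241 for Acsl5). Acsl5 passed with the GC and length trend removed (-0.22, limma adjusted p = 0.0404).

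Acsl4, which prefers arachidonic acid and lies on the X chromosome, was at 887, 815 and 982 in double knockouts and at 1084, 1127 and 933 in controls. The numbers 3 run against the rest: double knockout 3 lay above control 3, while double knockouts 1 and 2 lay below controls 1 and 2. Its log2 fold change was -0.23 ± 0.10 (limma adjusted p = 0.21), and -0.38 without both libraries numbered 3 (limma adjusted p = 0.272). It has the lowest GC content of the set, 39.0%, and with the GC and length trend removed it passed at -0.40 (limma adjusted p = 0.00254).

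Acsl3, a form of lipid droplets and the endoplasmic reticulum, had the highest level of the group per kilobase (471 in double knockouts and 411 in controls). It was at 1732, 1870 and 1974 in double knockouts and at 1607, 1762 and 1503 in controls, where control 2 reached above double knockout 1 (0.20 ± 0.09, limma adjusted p = 0.242). The log2 ratio of Acsl1 to the sum of Acsl3, Acsl4 and Acsl5 was -2.31 ± 0.07 in double knockouts and -2.15 ± 0.15 in controls (SD, n = 3 each; exact two-sided permutation test, p = 0.2).

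**Figure D2:**
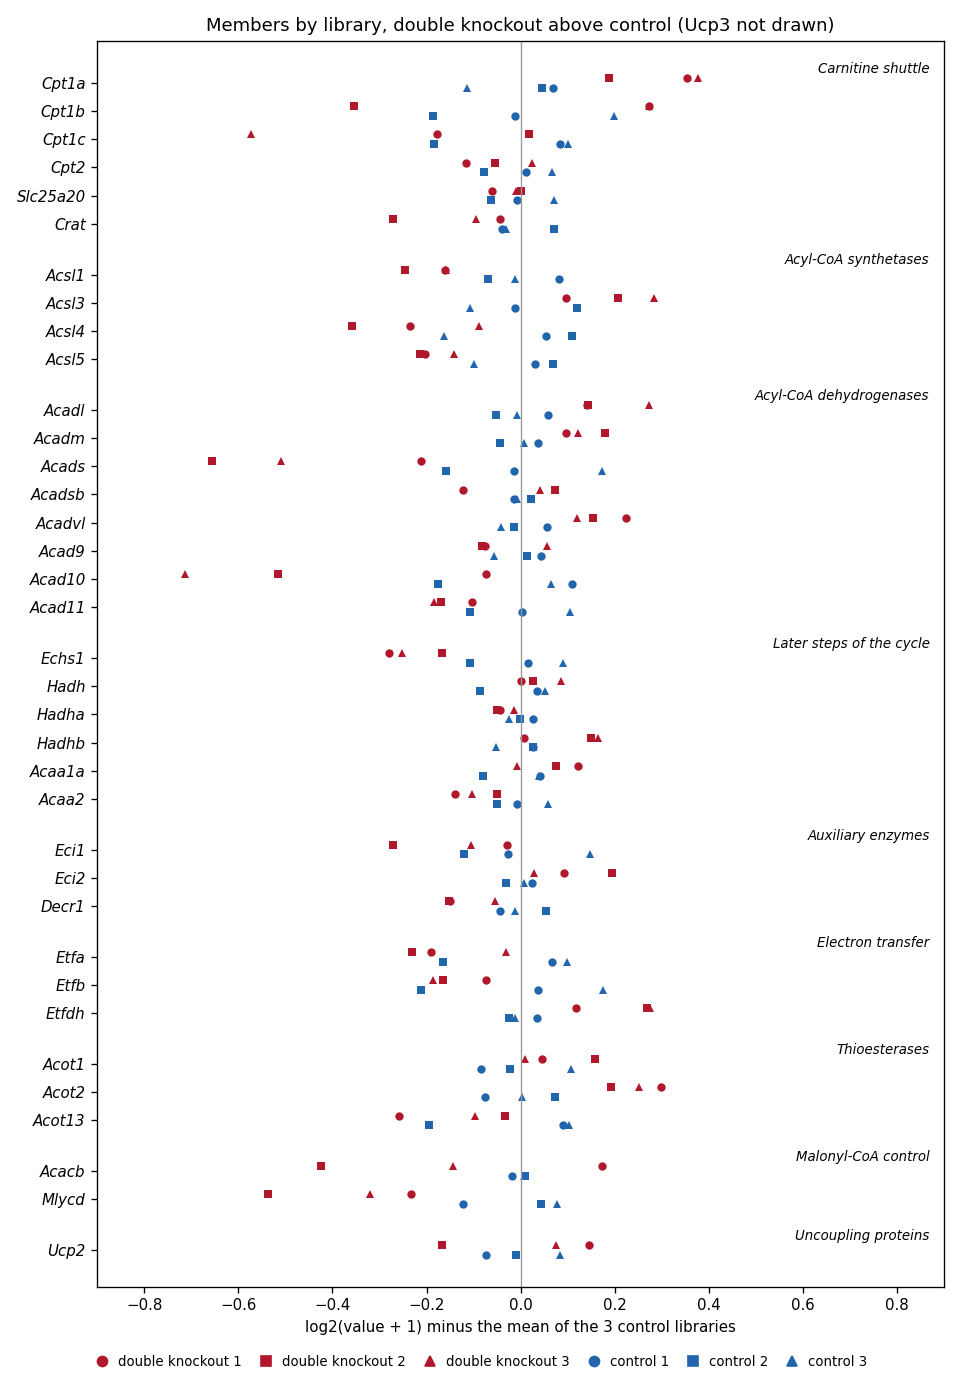
Each of 36 members by library: log2(value + 1) minus the mean of the 3 controls (x axis), with double knockouts in red above controls in blue and marker shape for the library number. Acads and Mlycd have all red points left of all blue ones, Cpt1a and Acot2 all right of them, and most other genes have mixed points close to 0.

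Of the 8 acyl-CoA dehydrogenase genes, whose products take the first oxidation step and mostly differ in the chain length they prefer, 0 rose and 1 fell. Acads, for the shortest chains (chr5:115110299-115119346, minus strand, mm10), was at 1627, 1195 and 1322 in double knockouts and at 1864, 1686 and 2125 in controls. All double knockouts lay below all controls. The log2 fold change was -0.46 ± 0.11 (interval -0.70 to -0.22, limma adjusted p = 0.0254). The call held without double knockout 1 or control 2 and was lost when any of the other 4 libraries was left out (limma adjusted p up to 0.181). It was also lost without both libraries numbered 3 (-0.35, limma adjusted p = 0.522), without the robust option (limma adjusted p = 0.142) and with the GC and length trend removed (-0.33, limma adjusted p = 0.0795). Its GC content of 60.1% is exceeded only by that of Mlycd within the set, and the libraries differ in how expression follows GC content, as given below.

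Acadm, Acadl and Acadvl, for medium, long and very long chains, had all double knockouts above all controls but did not pass. Acadl, with the highest level of the group per kilobase, was at 4766, 4778 and 5225 in double knockouts and at 4503, 4172 and 4304 in controls (0.19 ± 0.08, limma adjusted p = 0.228). Acadm spanned 2942 to 3113 in double knockouts and 2668 to 2822 in controls (0.13, limma adjusted p = 0.398), and Acadvl 923 to 993 in double knockouts and 826 to 883 in controls (0.17, limma adjusted p = 0.305). Acadvl passed with the GC and length trend removed (0.26, limma adjusted p = 0.0232). The value of Acads relative to Acadm, a ratio chosen after the values were seen, was 0.553, 0.384 and 0.442 in double knockouts and 0.661, 0.632 and 0.769 in controls. Per kilobase, the order Acadl, Acadm, Acads, Acadvl held in both genotypes, with 2569, 1474, 739 and 440 in double knockouts and 2258, 1344, 1012 and 392 in controls.

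The other dehydrogenase genes had lower levels per kilobase, 30.4 to 242 in double knockouts and 40.6 to 248 in controls. Acad10, an enzyme gene of less settled substrate, was at 147, 108 and 94 in double knockouts and at 167, 137 and 162 in controls. Double knockout 1 lay within the controls (-0.43 ± 0.17, limma adjusted p = 0.151), and it shares 14.6% of its stretches with its neighbour Acad12. Without double knockout 1 it passed (limma adjusted p = 0.0485). Acad9, also an assembly factor of respiratory complex I, spanned 921 to 1013 in double knockouts and 937 to 1004 in controls. Acadsb, for short branched chains, spanned 793 to 908 in double knockouts and 855 to 876 in controls, and Acad11 297 to 314 in double knockouts and 313 to 363 in controls. Each of these 3 ranges overlaps, with log2 fold changes of -0.03, 0.00 and -0.15.

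Of the 6 genes for the later enzymes of the cycle, 0 passed. Hadha and Hadhb encode the alpha and beta subunits of the trifunctional protein, which carries out the last steps for long chains. Hadha was at 6352, 6317 and 6486 in double knockouts and at 6663, 6540 and 6432 in controls (-0.04 ± 0.08, interval -0.20 to 0.13). Hadhb was at 5157, 5693 and 5754 in double knockouts and at 5226, 5227 and 4946 in controls (0.11 ± 0.08, interval -0.07 to 0.28). Both genes of this divergent pair overlap between genotypes.

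Reads of Hadhb can also match another row of the table. Gm13910, a processed copy on chromosome 2 that holds 57.2% of the 75-base stretches of Hadhb, was at 2375, 2633 and 2485 in double knockouts and at 2448, 2549 and 2311 in controls. Adding it to Hadhb gave 7532, 8326 and 8239 in double knockouts and 7674, 7776 and 7257 in controls, which overlap as well. The value of Gm13910 relative to Hadhb was 0.432 to 0.462 in double knockouts and 0.467 to 0.488 in controls.

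Echs1, the short-chain enoyl-CoA hydratase, was at 1904, 2059 and 1941 in double knockouts and at 2337, 2146 and 2462 in controls. The genotypes did not overlap, and the difference did not pass (-0.23 ± 0.09, limma adjusted p = 0.137). Hadh, the hydroxyacyl dehydrogenase for shorter chains, spanned 3097 to 3287 in double knockouts and 2918 to 3209 in controls. Acaa2, the mitochondrial thiolase, spanned 2404 to 2559 in double knockouts and 2556 to 2758 in controls, and Acaa1a, its peroxisomal relative, 1365 to 1495 in double knockouts and 1298 to 1413 in controls. The log2 fold changes were 0.04, -0.10 and 0.06, and Acaa1a shares 27.3% of its stretches with Acaa1b.

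Unsaturated chains need extra enzymes. Decr1, the dienoyl-CoA reductase, was at 1218, 1216 and 1301 in double knockouts and at 1311, 1404 and 1341 in controls, just below without overlap (-0.12 ± 0.08, limma adjusted p = 0.473). The isomerase gene Eci2 spanned 1079 to 1209 in double knockouts and 1034 to 1075 in controls, just above without overlap (0.10, limma adjusted p = 0.541). Its partner Eci1 spanned 996 to 1177 in double knockouts and 1105 to 1331 in controls, with overlap (-0.14).

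Electrons from the dehydrogenases pass through the electron transfer flavoprotein, made of the Etfa and Etfb products, to the oxidoreductase encoded by Etfdh. Etfdh was at 3054, 3392 and 3408 in double knockouts and at 2884, 2767 and 2793 in controls. All double knockouts lay above all controls (0.22 ± 0.08, limma adjusted p = 0.146), and the gene passed with the GC and length trend removed (0.20, limma adjusted p = 0.0393). Etfa spanned 2625 to 3013 in double knockouts and 2746 to 3296 in controls, and Etfb 451 to 488 in double knockouts and 443 to 580 in controls, with log2 fold changes of -0.15 and -0.14 and overlap in both.

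Although both products form 1 complex, Etfb stood far below Etfa per kilobase, at 521 in double knockouts and 579 in controls, beside 1997 in double knockouts and 2220 in controls for Etfa. For Etfb, 66.3% of the 75-base stretches also belong to Gm45233, a transcript that overlaps it on the same strand and is listed at 0 in all 6 libraries. How such reads were assigned is not stated, so the level of Etfb is uncertain.

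Thioesterases free fatty acids from coenzyme A again. Acot2, the mitochondrial form, was at 753, 700 and 729 in double knockouts and at 581, 644 and 614 in controls, without overlap (0.25 ± 0.09, limma adjusted p = 0.132). It passed with the GC and length trend removed (0.34, limma adjusted p = 0.0102). Acot1, its cytosolic neighbour on chromosome 12, spanned 474 to 525 in double knockouts and 444 to 507 in controls with overlap (0.07). The pair share sequence: 20.5% of Acot2 stretches occur in Acot1 and 19.7% of Acot1 stretches in Acot2, so their split is uncertain. Acot13, a smaller enzyme of another fold, was at 846, 989 and 946 in double knockouts and 1078, 885 and 1088 in controls, with overlap (-0.13 ± 0.10).

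Malonyl-CoA, the block on the entry step, is made at mitochondria by the Acacb product and removed by the Mlycd product. Mlycd (chr8:119394878-119411102, plus strand, mm10) was at 340, 275 and 320 in double knockouts and at 367, 412 and 422 in controls. All double knockouts lay below all controls, with -0.36 ± 0.11 on the log2 scale (interval -0.60 to -0.13), and the adjusted p of 0.0687 missed the threshold in limma. Its GC content of 61.0% is the highest of the set, and with the GC and length trend removed the difference was -0.24 (limma adjusted p = 0.192). Acacb was at 2247, 1484 and 1803 in double knockouts and at 1969, 2005 and 2004 in controls. The controls lie close together while the double knockouts fall on both sides of them, with an SD of 383 in double knockouts and 20.5 in controls (-0.13 ± 0.12, limma adjusted p = 0.583).

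Of the uncoupling proteins, carriers of the inner membrane, Ucp2 was at 2525, 2033 and 2403 in double knockouts and at 2167, 2265 and 2420 in controls, with overlap (0.02 ± 0.09). Ucp3, the form of adult muscle, was at 5, 2 and 3 in double knockouts and at 5, 3 and 1 in controls, too few reads for a difference to be detectable at this depth.

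**Figure D3:**
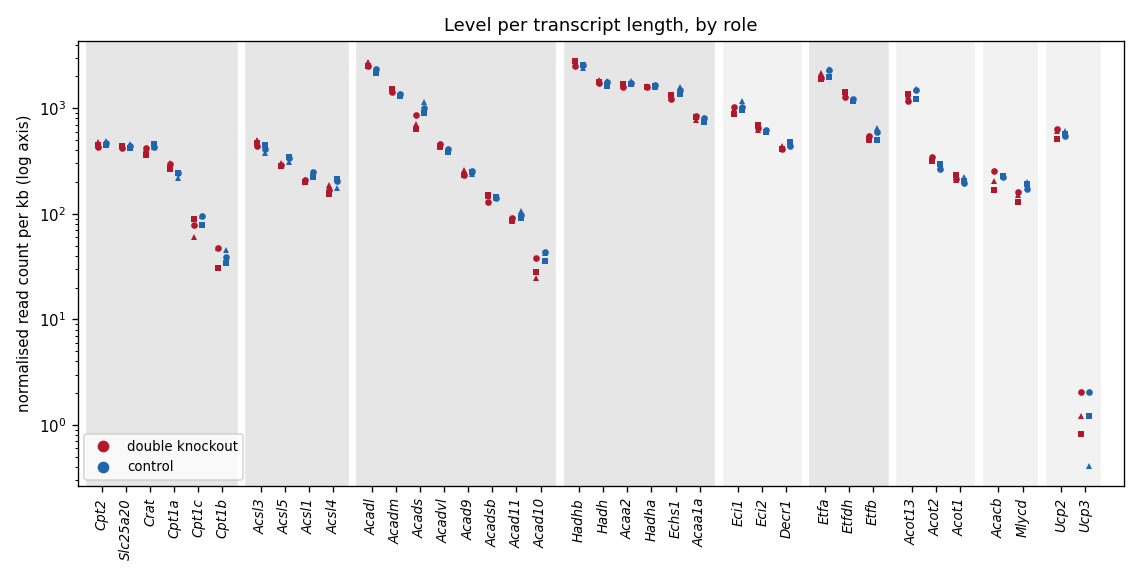
Normalised read count per kilobase of the longest coding transcript (y axis, log scale) for all 37 members, grouped by role in shaded blocks and ordered by level (double knockouts in red left of controls in blue, marker shape for the library number). Hadhb leads with means of 2702 in double knockouts and 2506 in controls, and Ucp3 is at the bottom with 1.36 in double knockouts and 1.23 in controls.

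Libraries differed in how expression followed GC content, in step with genotype. Over 13773 genes, Spearman's rho of the deviation from the gene mean with GC content was 0.0962, -0.165 and -0.586 in double knockouts 1 to 3 and 0.281, 0.199 and 0.397 in controls 1 to 3 (a description, since genes are not independent). Every control lay above every double knockout, so this trend and the genotype cannot be told apart. Across the 37 members, whose GC content runs between 39.0% and 61.0%, the log2 fold change had a Pearson's r of -0.277 and a Spearman's rho of -0.24 with GC content, and 0.121 and 0.0901 once the trend was removed. With the trend removed 4 members were called higher (Cpt1a, Acadvl, Etfdh and Acot2) and 2 lower (Acsl4 and Acsl5), beside 2.79% and 2.99% of all genes. Acads was then not called. With a replicate block added to that, Acads was called (limma adjusted p = 0.0103), while Acsl5 (0.0694) and Etfdh (0.0746) were not.

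Genes around the pathway were taken from 7 lists, 5 of which had called members. Their counts stand beside 4.86% called over all tested genes and 8.08% of those with a mean of at least 100. Of 20 transcriptional regulators tested, 1 rose and 3 fell. The ERR family member Esrrg rose: it was at 2007, 1792 and 2184 in double knockouts and at 1335, 1499 and 1376 in controls (0.50 ± 0.09, limma adjusted p = 0.00246). Its relative Esrrb fell, at 202, 155 and 198 in double knockouts and 249, 298 and 270 in controls (-0.56 ± 0.13, limma adjusted p = 0.0169).

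Klf15, a factor for metabolic genes of the adult heart, was at 76, 55 and 48 in double knockouts and at 109, 111 and 118 in controls, and it fell (-0.93 ± 0.18, limma adjusted p = 0.00478). The coactivator gene Ppargc1b, named after its values were seen, also fell, with 311, 185 and 204 in double knockouts and 358, 365 and 385 in controls (-0.70 ± 0.16, limma adjusted p = 0.0194). Ppara, the receptor best known for inducing this pathway, had 23 to 32 in double knockouts and 25 to 34 in controls, and Ppargc1a, a coactivator, 1404 to 1554 in double knockouts and 1452 to 1613 in controls, both with overlap. This last pair was added for their known role. With the GC and length trend removed, Ppargc1a was called lower (-0.22, limma adjusted p = 0.0363).

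Of 9 genes of ketone body and acetyl-CoA use, 3 fell. Pdk2, a kinase that holds back pyruvate oxidation, was at 550, 538 and 521 in double knockouts and at 732, 817 and 778 in controls (-0.53 ± 0.09, limma adjusted p = 0.00135). Pdk1, of the same family and induced by low oxygen, fell as well, at 3790, 3102 and 3801 in double knockouts and 4584, 5118 and 4799 in controls (-0.44 ± 0.09, limma adjusted p = 0.00762). The third that fell was the ketone body dehydrogenase gene Bdh1, also named after its values were seen. It was at 223, 248 and 190 in double knockouts and at 339, 309 and 301 in controls (-0.53 ± 0.12, limma adjusted p = 0.0158).

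In the list of 12 PPAR targets 0 fell, and Txnip, a brake on glucose uptake, rose. It was at 3515, 4752 and 4466 in double knockouts and at 2318, 2430 and 2165 in controls (0.87 ± 0.10, limma adjusted p = 2.77e-05). Among 11 genes of AMPK and malonyl-CoA regulation 1 fell: Acaca, the cytosolic counterpart of Acacb, had 1726, 1425 and 1543 in double knockouts and 2015, 2062 and 1814 in controls (-0.33 ± 0.09, limma adjusted p = 0.0439). Among 19 tested genes for other mitochondrial acyl-CoA enzymes 1 fell, Ivd of leucine breakdown, at 1551, 1754 and 1504 in double knockouts and 2119, 2017 and 2184 in controls (-0.40 ± 0.09, limma adjusted p = 0.0109).

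Peroxisomal oxidation, with 20 genes tested, and carnitine supply, with 7, had 0 called members in limma. With the GC and length trend removed, the peroxisomal gene Acox3 was called higher (0.35, limma adjusted p = 0.0145). In the other lists Fabp3, a PPAR target, was then also called higher (0.39, limma adjusted p = 0.00963). Oxct1 of the ketone body list (-0.29, limma adjusted p = 0.00491) and Prkab2 of the AMPK list (-0.26, limma adjusted p = 0.0436) were called lower. The genotypes did not overlap in 4 higher and 2 lower peroxisomal genes and in 0 higher and 2 lower genes of carnitine supply, beside 21.7% of all tested genes and 31.5% of those with a mean of at least 100. Among peroxisomal genes the highest mean value was that of Hsd17b4, the multifunctional enzyme of peroxisomes, at 1698, 1455 and 1895 in double knockouts and 1965, 1953 and 2046 in controls without overlap (-0.25, limma adjusted p = 0.154). In the carnitine list it was that of Aldh9a1, an aldehyde dehydrogenase of carnitine synthesis, at 696, 607 and 651 in double knockouts and 641, 590 and 669 in controls (0.04, limma adjusted p = 0.855). Of the called genes named from the lists around the pathway, Esrrg, Pdk2 and Txnip kept their calls with each library left out and without the robust option. Each of the others named from these lists lost its call without the robust option and without control 3. With 1 library left out, Acaca and Esrrb were called in 1 of 6 fits and Ppargc1b in 2 of 6. Bdh1 and Ivd were called in 3 of 6, Klf15 in 4 and Pdk1 in 5. Acaca also lost its call with totals made equal (limma adjusted p = 0.0572), with a pseudocount of 10 (0.0505) and with a replicate block (0.0737). Finally, none of these called genes, Esrrg, Pdk2 and Txnip included, passed without both libraries numbered 3 (limma adjusted p 0.152 to 0.482). That fit has fewer libraries, and 0.137% of all tested genes passed in it. Their log2 fold changes kept their sign there, with 0.78 for Txnip, -0.51 for Pdk2 and 0.42 for Esrrg.

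**Figure D4:**
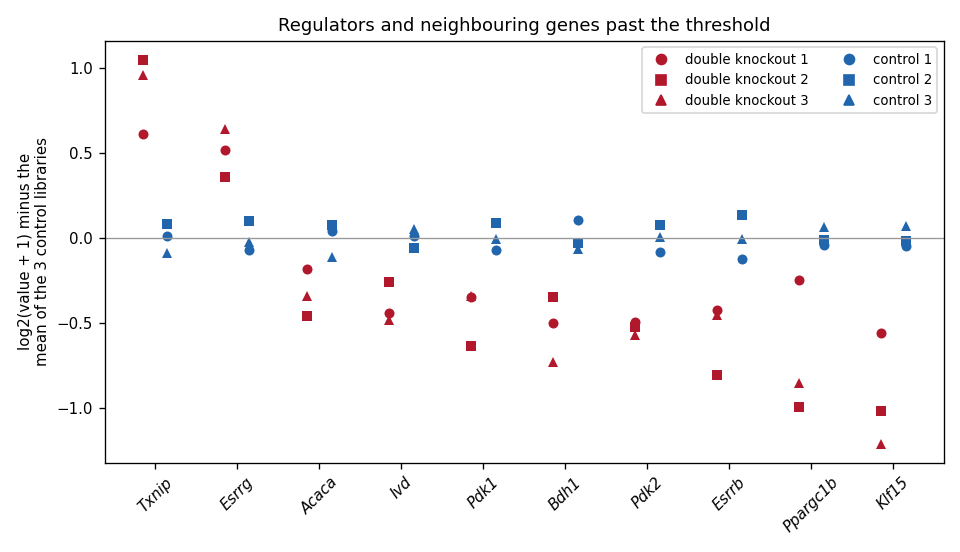
The 10 called genes outside the set that are described, by library: log2(value + 1) minus the mean of the 3 controls (y axis), double knockouts in red left of controls in blue, marker shape for the library number. All 3 double knockouts lie above the controls for Txnip and Esrrg and below them for the other genes drawn.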

How the data were processed

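Transcripts of 3 double knockout and 3 control libraries were compared. Per the labels' protocols, 500 ng of total RNA went into stranded mRNA libraries, read single-end over 75 bases. Tools listed in the submitters' processing notes, without roles, are STAR 2.4.2a, featureCounts 1.5.0, Trimmomatic, DESeq and DESeq2, with mm10 as the build. Strand and multi-mapping settings are not stated there or in the labels.

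The values the authors deposited are treated as a score: they look like counts multiplied per library and then rounded, since of the whole numbers up to 300, 16 are absent in double knockout 1, 14 in control 3 and 2 in control 2. No count model was therefore used, and depth is known only roughly from the totals.

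Genes with a mean of at least 1 in either genotype were tested with limma 3.58.1 (R 4.3.3) on log2(value + 1), with variance trend and robust moderation, two-sided, Benjamini-Hochberg adjusted over all tested genes. Fold changes on this scale understate those of low genes. The fit was tested on simulated data, drawn without the GC trend, sex difference or scaling of these libraries, so that test cannot speak to them. Whether libraries stem from different animals is not recorded, and p-values reflect only the spread between them, which may be technical. Lengths, GC content and positions are those of GENCODE M21 (GRCm38, the assembly of mm10), which holds 99.3% of the table's genes. Each library's dependence on GC content and length was fitted by splines with 5 degrees of freedom, using genes whose mean reached 50.

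Members and lists were chosen with earlier results of these data known. Values of each library are given for members with unadjusted p under 0.05, the member with the highest mean value in each role, up to 3 called genes of each other list (lowest adjusted p) and the gene with the highest mean value in lists with no call. Some further genes have them too, where a ratio, shared sequence or a neighbouring result is described. Alternatives were other scalings, filters and pseudocounts, voom weights, no robust option, a replicate block, the GC and length trend, and leaving out libraries. The result of 1 called gene of these lists is not reported here.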

Additional observations from a re-analysis of the deposited data

How the results depend on the processing

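Of 18 alternative settings, the count of called genes, 1299 over all genes, was 350 without the robust option, 38 without both libraries numbered 3, and 420 to 1253 with 1 library left out. Under the others it was between 1245 with a pseudocount of 10 and 1918 with no filter on low values, with 1545 after the GC and length trend was removed. The count of called members was 1. It was 2 with rescaling to equal totals, with no filter, with a mean of at least 10 and with voom weights (Cpt1a joined Acads in each). It was 0 without the robust option and without both libraries numbered 3, and 0 to 2 with 1 library left out. It was 6 with the GC and length trend removed and 5 when a replicate block was added to that.

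The replicate block alone left 1 called member (Acads) and gave 1355 calls over all genes. Deviations of same-numbered libraries from the mean of their genotype correlated at 0.0517, 0.0697 and 0.329, and only for number 3 was this the highest value. Deviations within a genotype depend on one another, so these values cannot decide whether library numbers pair the samples.

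The members' median of -0.036 was -0.000704 with the GC and length trend removed, with or without the block, and -0.079 to -0.027 with 1 library left out. The difference in summed values, -163, was 509 with rescaling to equal totals and -848 to 382 with 1 library left out.

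Uncalled members near 0 changed sign. Acadsb was at 0.014 with equal totals or voom weights. With the GC and length trend removed, with or without the block, Cpt2 was at 0.030, Slc25a20 at 0.019 and Hadha at 0.0068. Without both libraries numbered 3, Slc25a20 was at 0.0047 and Ucp3 at -0.21. With 1 library left out, ranges were -0.040 to 0.27 for Cpt1b, -0.040 to 0.057 for Acadsb, -0.046 to 0.11 for Ucp2, -0.24 to 0.56 for Ucp3, -0.28 to 0.015 for Acacb, -0.0054 to 0.063 for Hadh and -0.056 to 0.011 for Slc25a20. The cause was not tested.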
